A study of Zea mays with 4 samples.

Results

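NKD1 and NKD2 are duplicate C2H2 zinc finger proteins of the INDETERMINATE DOMAIN (IDD) family in maize, and plants that lack both make a defective endosperm with a poorly differentiated aleurone, its outer cell layer. The regions described here are strong NKD2 binding sites at which the NKD1 list held no peak. They were chosen from the strongest 10% of the NKD2 peaks, ranked by signal, the strength that the peak caller gave each site. Of these, 4170 had no NKD1 summit within 100 bp on the same chromosome, and 1516 did and are called shared. The unshared strong peaks were 4170 of 56855 NKD2 peaks in all, and the NKD1 list held 1951 peaks.

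Both lists came from DNA affinity purification sequencing (DAP-seq), in which a HALO-tagged protein made in a wheat germ extract captures sheared genomic DNA that carries no nucleosomes. Seedlings of the inbred B73, 14 days old, gave the DNA, which was sheared to about 200 bp, and both libraries were sequenced with paired reads of 150 bp. Each protein had 1 library, so binding of DNA in a tube was measured without replicates, without chromatin and outside the endosperm. The lists hold no read totals, and their depth is unknown here. A site missing from the NKD1 list is therefore a site not called at the depth and protein yield of that library.

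IDD proteins bind DNA through their zinc fingers. Paralogs that keep the same fingers can recognise the same sequences and still differ in how many sites an experiment recovers. The question behind the comparison was which strong NKD2 sites lacked a called NKD1 site, and whether they differed from shared sites of equal NKD2 signal in position or spacing. Positions are given on B73 build v4, the build in the study's methods and in the names of both lists, although the labels of the samples name RefGen_v3.

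Because NKD1 distance and NKD2 signal chose the regions, the values in the next paragraphs that rest on them are descriptions. The unshared peaks made up 73.3% of the strong NKD2 peaks (95% Wilson interval 72.2 to 74.5%), where 96.5% of all NKD2 peaks lacked an NKD1 summit. They were rare at the very top of the list. Only 4 of the 100 strongest NKD2 peaks were unshared, then 95 of the 500 strongest and 329 of the 1000 strongest. Over the 2000 strongest the share reached 49.0%.

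When the strong peaks were divided by rank into 10 steps of nearly equal size, the unshared share was 22.1% in the strongest step, with signals from 618 down to 100. It was 49.6% in the next step, 61.5% in the step after it and 75.7% in the fourth. In the weakest step, with signals from 45.3 down to 43.8, it was 92.8% (90.4 to 94.6%). The strongest step thus held mostly shared sites and the weakest few of them (41 peaks), and the share passed through intermediate values in between.

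**Figure D1:**
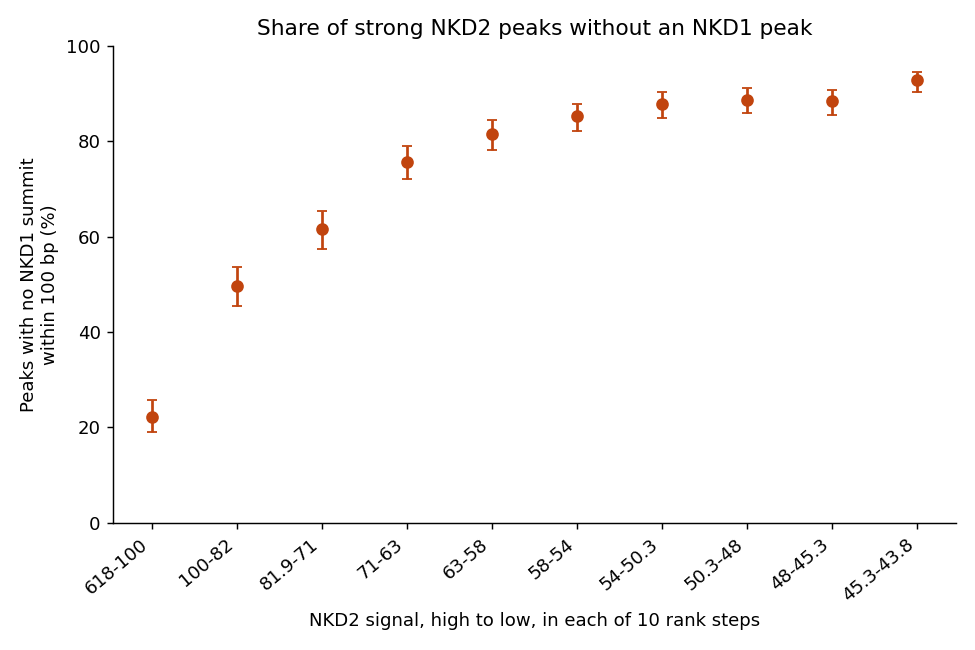
Share of strong NKD2 peaks with no NKD1 summit within 100 bp (y axis, percent) in 10 steps of rank, labelled with the highest and lowest NKD2 signal of each step (x axis). Points are shares and bars are 95% Wilson intervals; the share was 22.1% in the strongest step and 92.8% in the weakest.

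The NKD2 signal of the unshared peaks ranged from 43.8 to 309.4, with a median of 54.55 and quartiles of 48.0 and 65.9. The shared peaks had a median of 80.0 and reached 618. The last peak inside the strongest 10%, at chr4:45759664-45759864, had a signal of 43.8 and no NKD1 summit nearby. The first peak outside, at chr2:172898904-172899104, had a signal of 43.7 and an NKD1 summit 78 bp away. The edge of the strong set therefore ran through peaks of almost the same signal, 6 at 43.8 and 13 at 43.7.

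The NKD1 peaks at the shared sites were also weaker in the weak steps. In the strongest step the median NKD1 signal at shared sites was 36.0 and the median NKD1 −log10 q was 4.45. In the weakest step they were 21.0 and 2.70, and from the second step on the median −log10 q stayed between 2.51 and 3.02. The lower quartile of the NKD1 −log10 q at shared sites of the weakest step was 2.21, and the lowest value in the whole NKD1 list was 2.04. The whole NKD1 list had a median −log10 q of 2.82 and a lower quartile of 2.32. From the second step on, the medians at shared sites were thus near that of the whole list, and this was not particular to the weak end. The NKD1 peaks at the 1516 shared sites are themselves part of that list of 1951 peaks, so its median is no independent background. What part of the unshared peaks fell below the lower limit of the NKD1 list was not tested.

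The strongest unshared peak was at chr3:74903717-74903917, at rank 8 of the NKD2 list, with a signal of 309.4 and a −log10 q of 57.0, where q is the caller's adjusted p-value and a higher value is a surer call. The nearest NKD1 summit was 81.8 kb away. The shared peak nearest to it in signal, at chr8:7700056-7700256, had a signal of 310 and a −log10 q of 81.4, and its NKD1 signal was 89.0. The 7 NKD2 peaks ranked above the chromosome 3 site were all shared.

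The unshared peak next in strength lay 3.20 kb from it at chr3:74900515-74900715, with a signal of 199. Its −log10 q was only 18.0, where the shared peak nearest in signal, at chr4:175152840-175153040, had 49.9 at a signal of 199.7. These 2 sites thus formed a pair of very strong NKD2 peaks, each with a lower −log10 q than the shared peak nearest to it in signal.

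The third, at chr1:305019461-305019661, had a signal of 190 and a −log10 q of 42.5. An NKD1 summit lay 533 bp away, and another NKD2 summit lay 524 bp away, so that both proteins had a called summit in its close neighbourhood. The fourth, at chr8:154445203-154445403, had a signal of 173, and its nearest NKD1 summit was 936 kb away. These were the only 4 unshared peaks among the 100 strongest, and their distances to NKD1 ran from 533 bp to 936 kb.

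The next 4 unshared peaks had signals from 163.9 down to 151. They lay at chr4:244557486-244557686, at chr6:20172270-20172470 and at chr6:54884396-54884596, and at chr1:130167269-130167469. The first, the third and the last had −log10 q values of 38.6, 37.9 and 32.9. The one at 20172270 on chromosome 6 had a −log10 q of 8.89 at a signal of 156.8. The shared peaks nearest to these 4 in signal had −log10 q values from 36.7 to 39.75. Their NKD1 signals were 51, 25, 33 and 23, so shared sites with nearly the same NKD2 signal differed widely in NKD1 signal.

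The caller's −log10 p and −log10 q for NKD2 were not fixed by the signal. At a signal of exactly 44.0, the value held by the most strong peaks, 233 peaks took only 12 different values of −log10 p, from 4.30 to 13.25. Among the 21 peaks at the 3 highest values 4 were shared, and among the 212 peaks at the other values 8 were shared. Peaks with 1 signal thus fell on separate levels of −log10 p, and the shared ones were a larger part of the upper levels (19.0%) than of the lower ones (3.77%), by counts that are small.

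Shared peaks were also more often higher when pairs from all signals were pooled. There were 265 signal values that both a shared and an unshared peak had, giving 46498 pairs of a shared with an unshared peak of identical signal. The shared peak had the higher −log10 p in 62.5% of the pairs, the unshared peak in 21.2%, and both were equal in 16.3%. A peak could enter many of these pairs, and signals held by many peaks weighed most. In the 1221 pairs matched on signal that are described further on, the gap was smaller. The shared peak had the higher −log10 q in 47.2% and the unshared peak in 36.7%, with a median difference of 0. That pairing takes, among unshared peaks of identical signal, those with the highest −log10 p first. With the lowest taken first, the shares were 82.1 and 13.1%, so the size of the gap depended on the pairing. By step of rank, the median −log10 q of unshared peaks was below that of shared peaks in 10 of 10 steps, by 6.08 in the strongest step and by 0.61 to 1.32 in the others. The strongest step also spanned the widest range of signal, from 100 to 618. These values come from the contrast that chose the regions, and the reads behind them were not used here.

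**Figure D2:**
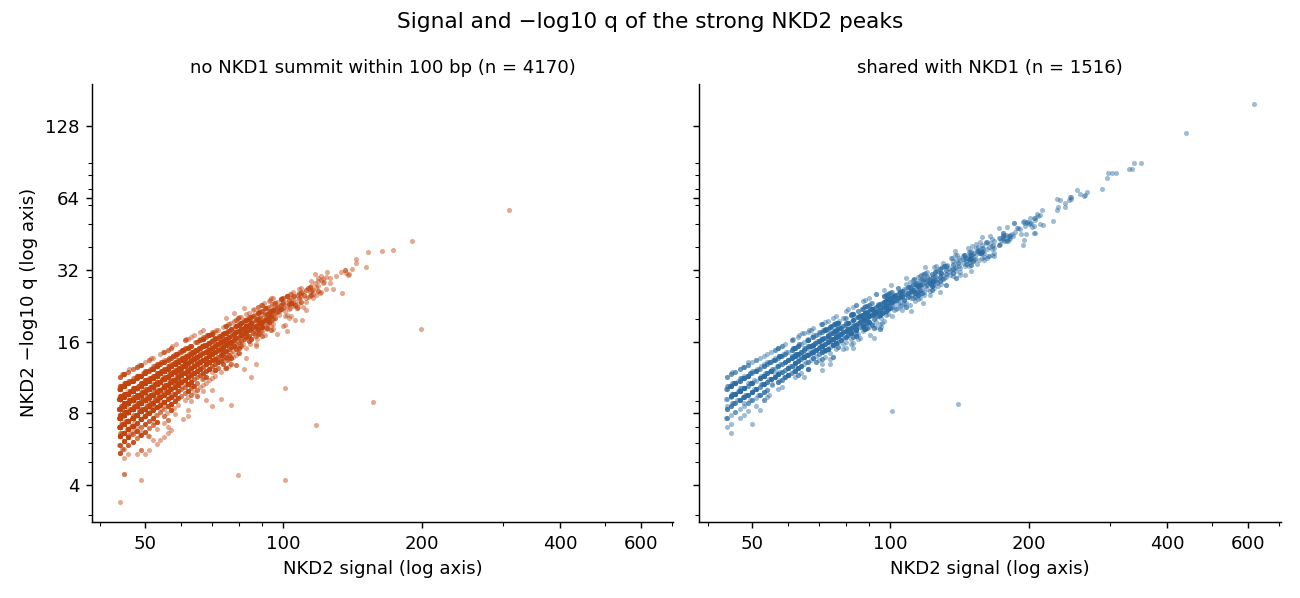
NKD2 signal (x axis, log) and NKD2 −log10 q (y axis, log) of each strong NKD2 peak without an NKD1 summit within 100 bp (left, n = 4170) and shared with NKD1 (right, n = 1516). Points fall on parallel lines, the unshared peaks reach from 3.39 to 57.0 on the y axis and the shared peaks from 6.64 to 159, and a few peaks of each kind lie far below the lines.

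A few unshared peaks combined a high signal with a very low −log10 q. Among the 131 unshared peaks with a signal of at least 100, 3 had a −log10 q under 10. They were at chr10:1434262-1434462 with a signal just above 100 and a −log10 q of 4.22, at chr4:181974968-181975168 with 118 and 7.12, and at 20172270 on chromosome 6, given above. Of 449 shared peaks with such signals, 2 had a −log10 q under 10. These were at chr4:127335528-127335728 and at chr2:83615299-83615499, with NKD2 signals just above 100 and of 140. Their NKD1 signals were 186 and 205, above their NKD2 signals, although the scales of the 2 libraries were not equated. The median −log10 q at signals of at least 100 was 25.1 for unshared and 31.1 for shared peaks.

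In the whole set, 79 unshared peaks (1.89%) had a −log10 q below 6.64, the lowest value of any shared peak. The shared peaks themselves set this cut, and the unshared peaks were more numerous and of lower median signal, so the count does not compare the 2 sets. Over all NKD2 peaks the upper quartile of −log10 q was 4.97. The 5 lowest values among the unshared strong peaks were 3.39, 4.21, 4.22, 4.40 and 4.47. They belonged to peaks at chr10:48267799-48267999, at chr4:2415271-2415471, at 1434262 on chromosome 10, at chr3:110202319-110202519, and at chr5:183555797-183555997. Their signals were 44, 49, just above 100, 79.6 and 45. Each lay more than 200 kb from an NKD1 summit, as did most unshared strong peaks (median 342 kb).

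The distance of the unshared strong peaks to NKD1 was close to that of the weaker NKD2 peaks. The median distance to the nearest NKD1 summit was 342 kb, with quartiles of 135 and 700 kb, beside a median of 349 kb and quartiles of 139 and 707 kb for the 50706 weaker NKD2 peaks without an NKD1 summit within 100 bp. An NKD1 summit lay beyond 100 bp but within 200 bp for 17 peaks (0.408%), up to 1 kb for another 19 (0.456%) and from 1 to 10 kb for 140 (3.36%). It lay 10 to 100 kb away for 658 (15.8%). For 2778 peaks (66.6%) the distance was 100 kb to 1 Mb, and for 558 (13.4%) it was over 1 Mb. Few of the peaks thus lay near the limit of 100 bp.

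The 3 unshared peaks nearest to the limit had NKD1 summits at 103, 105 and 108 bp. They were at chr6:139244340-139244540 with a signal of 66.0, at chr2:74808743-74808943 with 60.9, and at chr3:74770572-74770772 with 49.0. The shared peaks nearest to it had NKD1 summits at 91, 88 and 88 bp. They were at chr3:46290644-46290844 with an NKD2 signal of 125.6, and at chr2:188122234-188122434 with 72.3 and at chr2:239013798-239013998 with 59.8. Each of these 3 shared peaks had another NKD2 summit within 100 bp, at 92, 94 and 89 bp.

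Of the 36 unshared peaks within 1 kb of an NKD1 summit, 29 had another NKD2 summit within 100 bp of that NKD1 summit, and in 16 of these 29 the other NKD2 peak was the stronger. These were NKD2 sites beside another NKD2 site that matched NKD1. Within 200 bp it was 10 of 17 peaks. The remaining 7 of the 36 all lay within 200 bp of an NKD1 peak that no NKD2 summit matched within 100 bp.

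**Figure D3:**
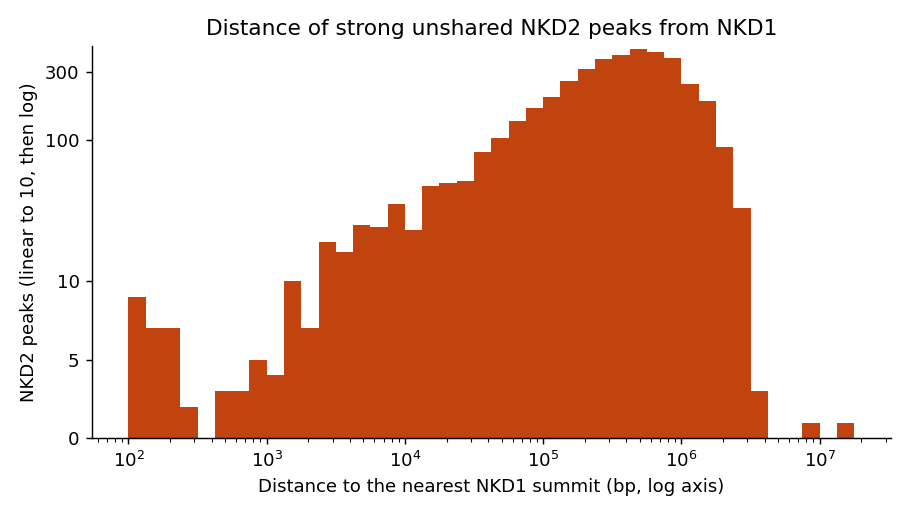
Number of unshared strong NKD2 peaks (y axis, linear to 10 and log beyond) by distance to the nearest NKD1 summit (x axis, bp, log). Most of the 4170 peaks lie between 100 kb and 1 Mb, a small group of 17 lies within 200 bp, and 2 peaks on chromosome 5 lie beyond 8 Mb.

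The farthest unshared peaks were on chromosome 5. One, from 99791528 to 99791728 with a signal of 81.0, was 14.4 Mb from an NKD1 summit, and another, from 75394419 to 75394619 with a signal of 49.0, was 8.44 Mb away. The third in order was at chr4:107018424-107018624, with a signal of 68.0, at 3.68 Mb. The longest stretch between neighbouring NKD1 summits on that chromosome, chr5:85402827-145726923, was 60.3 Mb long and held 2 unshared strong peaks and 74 NKD2 peaks of any strength. On the other 9 chromosomes the longest such stretch was 5.63 to 7.57 Mb and held 7 to 19 unshared strong peaks and 142 to 200 NKD2 peaks. The long gap on chromosome 5 was thus sparse in NKD2 peaks too, whereas the shorter gaps elsewhere held more of them in less length.

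The unshared share varied little between chromosomes. It ran from 72.2% on chromosome 5 to 75.3% on chromosome 4, and the 95% interval of 10 of 10 chromosomes included the overall 73.3%. Chromosome 5 had fewer unshared strong peaks per length, at 0.965 per Mb, against 1.99 to 2.28 per Mb on the other 9. Shared peaks were sparse there too, at 0.371 per Mb. By position within a chromosome, the unshared share was 72.0% in the outermost 10% of the length at each end, and 74.6, 74.3, 73.9 and 72.1% in the 4 bands from there to the centre. The 95% intervals of these 5 bands overlapped.

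**Figure D4:**
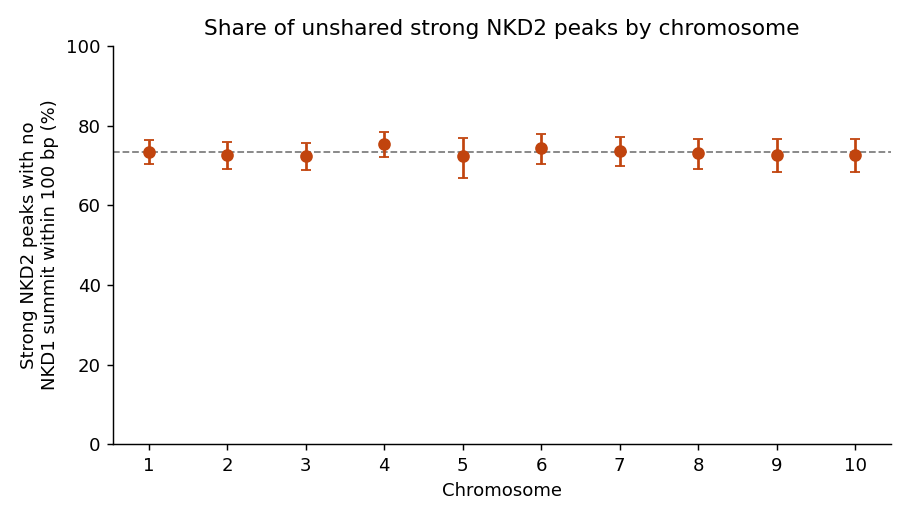
Share of strong NKD2 peaks with no NKD1 summit within 100 bp (y axis, percent) on each of the 10 chromosomes (x axis). Points are shares, bars are 95% Wilson intervals, and the dashed line is the overall 73.3%, which lies inside all 10 intervals.

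In windows of 5 Mb with at least 10 strong peaks, of which there were 336, the median unshared share was 73.5% with quartiles of 66.7 and 81.25%. The window with the most unshared strong peaks was on chromosome 6 from 45 to 50 Mb, with 29 unshared and 7 shared peaks. Of the 29, 18 lay in a single run of 79.5 kb, chr6:49362456-49441991. In 5 of these windows all strong peaks were unshared. The largest of these, on chromosome 4 from 105 to 110 Mb, held 15. The lowest share was on chromosome 5 from 215 to 220 Mb, where 5 of 14 strong peaks were unshared. These windows were named after their values were seen, and with counts this small their shares carry wide intervals.

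Position and spacing were not used to choose the regions, and were compared at equal NKD2 signal. Each shared peak, from the strongest down, was paired with the unshared peak nearest in signal, at most 5% apart and without reuse. This gave 1221 pairs, 689 of identical signal, with a median signal of 72.0 in both sets. The 295 shared peaks left without a partner had signals of at least 96.9. Differences are shared minus unshared, in percentage points, with Newcombe's 95% interval. The intervals treat peaks as independent and cover counting error in 1 library per factor only.

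Unshared and shared sites were near chromosome ends about equally often in this pairing. The 20% of length nearest to each chromosome end held 489 of the 1221 matched unshared peaks (40.05%) and 491 of the shared peaks (40.2%), beside 40.3% of all NKD2 peaks. The difference was 0.16 points (−3.72 to 4.05). This depended on which of several unshared peaks of identical signal were taken. The deposited list is ordered by p-value, so that pairing in list order took those with a high −log10 p. Pairing in the reverse order, an alternative added after the data were seen, gave −4.91 points (−8.82 to −0.99), and an average over 10 rank steps, which uses all unshared peaks, gave 1.19 points (−2.62 to 5.01). No difference in position was shown that held under each choice.

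The unshared peaks also differed among themselves. At each signal, they were divided at the median −log10 p of the unshared peaks of that signal, and 1134 peaks at the median were left out. Of the 1412 peaks above it 39.0% lay in the outer parts of the chromosomes, and of the 1624 below it 44.6%, a difference of −5.56 points (−9.05 to −2.04). Another NKD2 summit within 1 kb was found for 16.4% of the upper and 11.5% of the lower peaks, a difference of 4.85 points (2.38 to 7.34). Over all NKD2 peaks these shares were 40.3 and 12.5%. Pooled over signals, unshared peaks below the median −log10 p of their signal were thus more often near chromosome ends. They were less often next to another NKD2 peak. Each signal could give unequal numbers to the 2 parts, so the pooled parts were not matched on signal. The values are for unshared peaks only. This division was chosen after the data were seen.

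Of all 4170 unshared strong peaks, 635 (15.2%) had another NKD2 summit within 1 kb, where 12.5% of all NKD2 peaks had one. The neighbours were of much the same kinds as those of NKD2 peaks in general. The neighbour was an NKD2 peak outside the strongest 10% with no NKD1 summit within 100 bp in 560 cases (88.2%), another unshared strong peak in 48 (7.56%) and an NKD2 peak of any strength with an NKD1 summit within 100 bp in 27 (4.25%). Over all NKD2 peaks with a neighbour within 1 kb, these shares were 85.0, 8.82 and 6.15%. The median signal of the neighbours was 23.0, and 21.2 over all NKD2 peaks.

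In the matched sets, 217 unshared peaks (17.8%) and 246 shared peaks (20.1%) had such a neighbour, a difference of 2.38 points (−0.74 to 5.48). Counting a peak as shared only where it was the NKD2 peak nearest to its NKD1 summit, also added after the data were seen, turned the difference to −2.19 points (−5.28 to 0.91). That definition moves the farther peak of a close NKD2 pair to the unshared set, which rose from 4170 to 4221 peaks. Each peak so moved has a close NKD2 neighbour. A summit limit of 50 bp, with 4246 unshared peaks, also turned the difference, while 8 other choices gave intervals above 0, with shared peaks higher. All 8 still counted neighbours within 100 bp, on which the rule for sharing bears, as described below. Counting only peaks whose nearest NKD2 summit lay beyond 200 bp and within 1 kb gave −1.64 points (−4.00 to 0.72). A peak with a closer neighbour counts as having none there. Among matched peaks 90 shared and 38 unshared had a neighbour within 100 bp, so this value does not compare all neighbours beyond 200 bp. Whether the 2 kinds of site differed in how often they had an NKD2 neighbour within 1 kb thus depended on these choices. Neither the intervals above 0 nor the changes of sign can be separated from the rules that define the sets.

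Of the 6 distance classes compared in the matched sets, the interval excluded 0 only for neighbours within 100 bp. Without matching it also excluded 0 beyond 10 kb, a class that held 42.8% of unshared and 37.9% of shared peaks, a difference of −4.90 points (−7.74 to −2.01). In the matched sets, a neighbour within 100 bp was found for 38 unshared peaks (3.11%) and 90 shared peaks (7.37%), a difference of 4.26 points (2.51 to 6.07). Over all strong peaks the numbers were 81 unshared and 109 shared. For all but 8 of these 109 shared peaks, the neighbouring NKD2 peak had the same NKD1 summit as its nearest. Because the limit for sharing is also 100 bp, 2 NKD2 peaks this close can both be called shared through 1 NKD1 summit, and this part of the difference follows from the rule. For the next class, up to 200 bp, the shares were 4.10 and 3.85%. From there to 1 kb they were 10.6 and 8.93%, a difference of −1.64 points (−4.00 to 0.72).

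**Figure D5:**
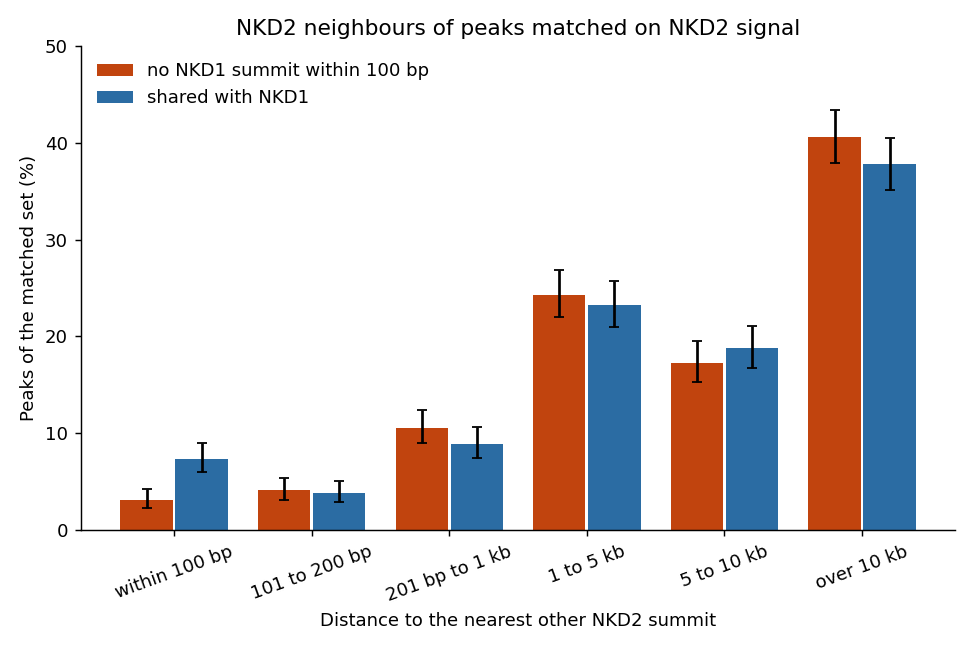
Share of the 1221 unshared and 1221 shared peaks matched on NKD2 signal (y axis, percent) by distance to the nearest other NKD2 summit (x axis). Bars are shares and error bars are 95% Wilson intervals; within 100 bp the shares were 3.11 and 7.37%, and in the other classes the intervals of the 2 sets overlapped.

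Some exact spacings recurred among close neighbours. Among the 635 unshared peaks with a neighbour within 1 kb, 19 (2.99%) had it at exactly 156 bp, beside 1.65% of the 303 shared peaks and 0.819% of all 7085 NKD2 peaks with such a neighbour. At exactly 203 bp the shares of unshared and shared peaks were nearly equal, at 1.89 and 1.98%, beside 0.875% of all NKD2 peaks. The 19 peaks at 156 bp were on 8 chromosomes, with signals from 45.2 to 121.9, and the neighbour was another unshared strong peak for 8, a peak with an NKD1 summit within 100 bp for 4 and a weaker unshared peak for 7. The commonest spacing of shared peaks was 78 bp, with 36 peaks, and 28 of these had a neighbour with the same nearest NKD1 summit, so that the limit for sharing bears on the count. Only 2 unshared peaks had a neighbour at 78 bp. These distances were singled out after they were seen, and no test was made of them.

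Few unshared strong peaks lay within 1 kb of each other. Joined at 1 kb, the 4170 peaks formed 4144 loci, of which 4118 held a single peak and 26 a pair, and none held more. Joined at 10 kb they formed 4011 loci, of which 133 held a pair and 10 held more, and 159 pairs of peaks next to each other were within 10 kb. In 4 of the 26 pairs within 1 kb the summits were exactly 156 bp apart, whereas no other distance up to 1 kb occurred more than once. One such pair was at chr8:46711869-46712069 with a signal of 58.1 and at chr8:46712025-46712225 with a signal of 121.9, at 1055 kb from NKD1. The pair at chr6:73452295-73452495 and at chr6:73452451-73452651 had signals of 48.3 and 89.7. The pair at chr2:43938444-43938644 and at chr2:43938600-43938800 had 68.1 and 53.2, and that at chr4:135455616-135455816 and at chr4:135455772-135455972 had 48.8 and 52.2. The pair nearest to NKD1, on chromosome 2, was about 38.3 kb from an NKD1 summit, so at these sites 2 strong NKD2 summits lay a fixed distance apart with no NKD1 peak at either.

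The largest group of unshared strong peaks was a run on chromosome 6, found when peaks were joined at 20 kb, where no other group held more than 4. It held 18 unshared strong peaks in 79.5 kb, with signals from 46.5 to 108 and a median of 67.0. The same stretch held 4 shared strong peaks with signals from 53.0 to 85.0, 32 NKD2 peaks in all and 5 NKD1 peaks. Of the 31 distances between neighbouring NKD2 summits, 19 were between 1354 and 1374 bp, just beyond the 1 kb used for neighbours. Both kinds of site thus occurred within 1 run of recurrent spacing, where unshared summits were between 1368 bp and 19.7 kb from NKD1. The run was noticed after the data were seen, and the sequence under it was not analysed here. Without its peaks the unshared share of strong peaks was 73.3%, and the matched differences were 0.00 points in outer position and 2.39 points in neighbours within 1 kb.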

How the data were processed

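Per the study's methods, reads were cleaned by Trimmomatic, placed on B73 build v4 by Bowtie2 and kept above mapping quality 30. Events were called per library by GEM, and the authors removed those of a HALO-GST control and of listed problem regions. The deposited signal is the strength that GEM gave an event and is not scaled between libraries. The deposited p-values and q-values are −log10 values from the caller. Sequencing depth is not given by the lists.

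The NKD2 list was ranked by signal, with ties in list order, and its strongest 10% was taken. Distances are between summits. Shares carry 95% Wilson intervals and matched differences Newcombe intervals, computed with Python 3.11.15, numpy 2.4.6 and pandas 2.3.3; distances and intervals were tested on simulated data. Chromosome length is the largest deposited end. Named regions were the 8 strongest unshared peaks with the shared peak nearest in signal, the peaks at each limit, and the 5 lowest −log10 q. With 1 library per factor no p-value is given. The regions and comparisons were chosen with earlier results of these data known. Alternatives concerned the summit limit, list size, ranking, q-value, chromosome 5, matching, position and neighbour limits. The motif, sequence features and gene starts were not analysed here, nor were the other 2 lists, whose names give another build.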

Additional observations from a re-analysis of the deposited data

How the results depend on the processing

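No paired analysis was possible because NKD1 and NKD2 had 1 library each, and for the same reason no replicate could be left out. The unshared share of strong peaks, 73.3%, was 74.7% with a summit limit of 50 bp, 58.1% for the strongest 5% of the NKD2 list, 84.8% for the strongest 20%, and 91.7% when both lists were reduced to q-values of at most 0.0001, which by construction leaves fewer NKD1 peaks. A limit of 200 bp, ranking by q-value, leaving out chromosome 5, leaving out the run on chromosome 6 and the definition by the nearest NKD2 peak kept it within its interval. The difference in outer position, 0.16 points, changed sign with a limit of 200 bp (−0.49), the strongest 5% (−1.11), the strongest 20% (−1.05), without chromosome 5 (−0.52) and when identical signals were paired in reverse order (−4.91); all these intervals except the last included 0. The difference in neighbours within 1 kb, 2.38 points, changed sign with a summit limit of 50 bp (−2.37) and for the nearest NKD2 peak only (−2.19). It was also negative for a nearest neighbour beyond 200 bp and within 1 kb (−1.64), and each of these intervals included 0. Its interval excluded 0 with a limit of 200 bp (3.64), ranking by q-value (4.39), q-values of at most 0.0001 (7.41), an average over rank steps (3.74), no matching (4.76), neighbours within 500 bp (3.11), neighbours among the strong peaks only (5.65) and reverse order (4.50). The choices with intervals above 0 all still counted neighbours within 100 bp, on which the rule for sharing bears. The definition by the nearest NKD2 peak moves peaks with a close NKD2 neighbour to the unshared set, so its change of sign is bound to the rule as well. A nearest neighbour beyond 200 bp, the nearest NKD2 peak only, reverse order and leaving out the run were added after the data were seen. Alternatives for the motif and for gene starts were not run. Unknown depth limits what an absent NKD1 peak shows.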
